A study of Arabidopsis thaliana with 6 samples.

Results

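Both mutant alleles of FIO1 were compared directly with each other, *fio1-2* against *fio1-1*, in RNA-seq counts of whole seedlings. The comparison rests on 4 of the 6 libraries, namely the 2 whose titles name *fio1-2* and the 2 whose titles name *fio1-1*. The other 2 libraries were wild type (Col-0). They entered the same fit as a further group, and their values are given for reference. All plants were untreated *Arabidopsis thaliana* seedlings aged 14 days, and each library was made from total RNA of pooled seedlings. The allele *fio1-1* is a chemically induced splice-site mutation that removes a few residues of the protein. The label *fio1-2* is read here as the CRISPR deletion allele, which the study's text names *fio1-5* while keeping *fio1-2* for a T-DNA line. Each allele is 1 line, so an effect of the allele and any other difference between the lines cannot be told apart. The vector used for genome editing carried a Cas9 gene and a seed marker built from an oleosin gene, and the sources used here do not state whether that transgene was still in the line.

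FIO1 belongs to the METTL16 family of RNA methyltransferases, enzymes that place a methyl group on adenosine in RNA to give N6-methyladenosine (m6A). The mark is read by YTH-domain proteins and bears on the splicing, stability and translation of transcripts. In Arabidopsis FIO1 is known as a repressor of flowering and for its part in the period of the circadian clock. In animals METTL16 is known for its control of an S-adenosylmethionine synthetase transcript. The question asked here is where the transcriptomes of the 2 alleles part from each other.

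The mutant libraries held between 10102640 and 13055457 gene counts, and the wild-type libraries 9717111 and 10344511. Levels are given as CPM, the counts of a gene per 1e+06 counts of its library, scaled by TMM factors, which lay between 0.983 and 1.01. Pearson's r of log2 CPM across genes was 0.989 between replicates of either allele and 0.964 to 0.966 between alleles; genes are not independent replicates, so this describes the libraries. The study calls the replicates biological but does not state that they were grown apart, so the p-values measure only the spread between these pools of seedlings. That spread was largely shared across genes, with 62.14 prior against 3 residual degrees of freedom. A small p-value of a gene thus does not rest on the spread of its own libraries alone. With 2 libraries per group the outlying library of a pair cannot be told. FIO1 itself (AT2G21070, chromosome 2, 9040852 to 9043651) had 6.97 and 8.65 CPM in *fio1-2*, against 8.24 and 8.54 CPM in *fio1-1* and 11.1 and 8.94 CPM in wild type. The values of the alleles overlapped (log2 fold change -0.09, SE 0.188, limma-voom adjusted p = 0.803), and a gene-level count does not show either mutation.

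The alleles differed mainly by genes that were higher in *fio1-2*. A gene was called when its limma-voom adjusted p was under 0.05 and its level differed at least 2-fold, that is by a log2 fold change of at least 1. Of 21268 genes tested, 570 (2.68%) were called, 454 (2.13%) higher and 116 (0.545%) lower in *fio1-2* than in *fio1-1*. Without the 2-fold minimum the adjusted p picked 1981 higher genes (9.31%) and 1863 lower genes (8.76%), so the calls were uneven in direction only among the larger differences. The median log2 fold change over all genes tested was -0.002, and its quartiles were -0.166 and 0.175. Genes called higher also differed by more. Their median log2 fold change was 1.67, and 111 of them exceeded 3 and 49 exceeded 5. Genes called lower had a median change of 1.35 in size, with 2 past 3 and 1 past 5.

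The summed level shows the weight of the higher genes. The 454 genes together made up 15980 and 16450 CPM in *fio1-2*, against 2068 and 2090 CPM in *fio1-1* and 2796 and 2773 CPM in wild type. The 116 lower genes summed to 1044 and 1027 CPM in *fio1-2*, against 3020 and 3084 CPM in *fio1-1* and 1773 and 1753 CPM in wild type. For 210 of the higher genes the wild-type mean lay at or below both alleles, for another 210 it lay between them, and for 34 it lay at or above both. Among the lower genes these numbers were 35, 66 and 15. In 95 of the 454 and 39 of the 116 the annotated gene overlaps another annotated gene, and the strand setting of the counting is not given in the sources used here.

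**Figure D1:**
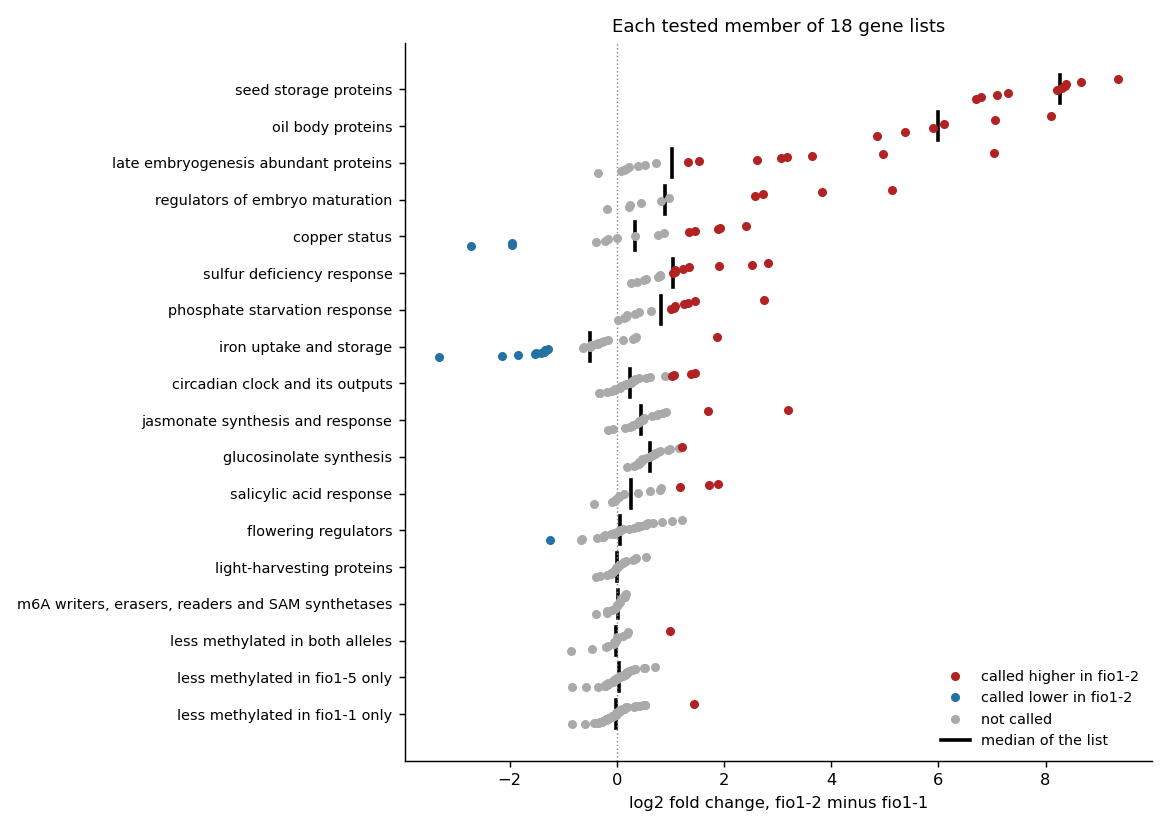
The log2 fold change of each tested gene (horizontal axis, *fio1-2* minus *fio1-1*) in 18 gene lists (rows). Red points were called higher in *fio1-2*, blue points called lower and grey points not called, and the black bar is the median of the list. Storage and oil body proteins lie farthest right, with medians of 8.262 and 6.002, copper genes fall on both sides, and iron genes lie mostly left of 0.

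Seed storage proteins were the genes that set the alleles apart most. These proteins fill the embryo of a ripening seed with nitrogen and sulfur reserves and are broken down in germination, so they serve here as markers of a seed programme in 14-day-old seedlings. All 10 listed genes were tested and all 10 were called higher in *fio1-2*, where 2.13% of all genes tested were. Among them AT1G03890 passed the filter on low counts only through *fio1-2*, where it is high. Its place in this count thus depends on the same difference. The summed level of the 10 genes was 8624 and 8908 CPM in *fio1-2*, against 38.5 and 37.5 CPM in *fio1-1* and 0.716 and 1.44 CPM in wild type. Since the libraries are bulk seedlings, more cells with such transcripts and more of the transcripts per cell cannot be told apart.

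The cruciferins, the globulin reserve of the seed, gave the highest counts. CRU3 (AT4G28520, chromosome 4, 14087556 to 14089796) had 2401 and 2418 CPM in *fio1-2*, against 5.86 and 5.96 CPM in *fio1-1* and no counts in wild type. The log2 fold change between alleles was 8.66 (SE 0.159, limma-voom adjusted p = 5.83e-52). CRA1 (AT5G44120, chromosome 5, 17756238 to 17758336) had 1974 and 1925 CPM in *fio1-2*, against 12.1 and 12.4 CPM in *fio1-1* and 0.102 and 0.192 CPM in wild type. CRU2 (AT1G03880) had 817 and 829 CPM in *fio1-2*, against 2.38 and 2.48 CPM in *fio1-1*. AT1G03890, a cupin gene next to CRU2, had 767 counts in *fio1-2* and none in *fio1-1* or wild type, which makes it at least 218-fold higher in *fio1-2* when *fio1-1* is set at a floor of 3 counts over its libraries. In each of these genes the replicates of an allele lay close together and far from those of the other allele.

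The albumins, the smaller storage proteins, differed to a like extent. SESA1 had 453 and 523 CPM in *fio1-2*, against 1.49 and 1.39 CPM in *fio1-1*. SESA2 had 999 and 1147 CPM in *fio1-2*, against 8.64 and 7.15 CPM in *fio1-1*. SESA3 had 1036 and 988 CPM in *fio1-2*, against 3.57 and 2.78 CPM in *fio1-1*. Log2 fold changes of the albumins ran from 6.80 for SESA5 to 8.36 for SESA1. SESA1 to SESA4 lie side by side on chromosome 4 and resemble each other, so how reads were shared among them is uncertain. The vicilin-like PAP85 had 104 and 108 CPM in *fio1-2*, against 0.794 and 1.19 CPM in *fio1-1* and 0.511 and 1.06 CPM in wild type, so its *fio1-1* and wild-type libraries overlapped.

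**Figure D2:**
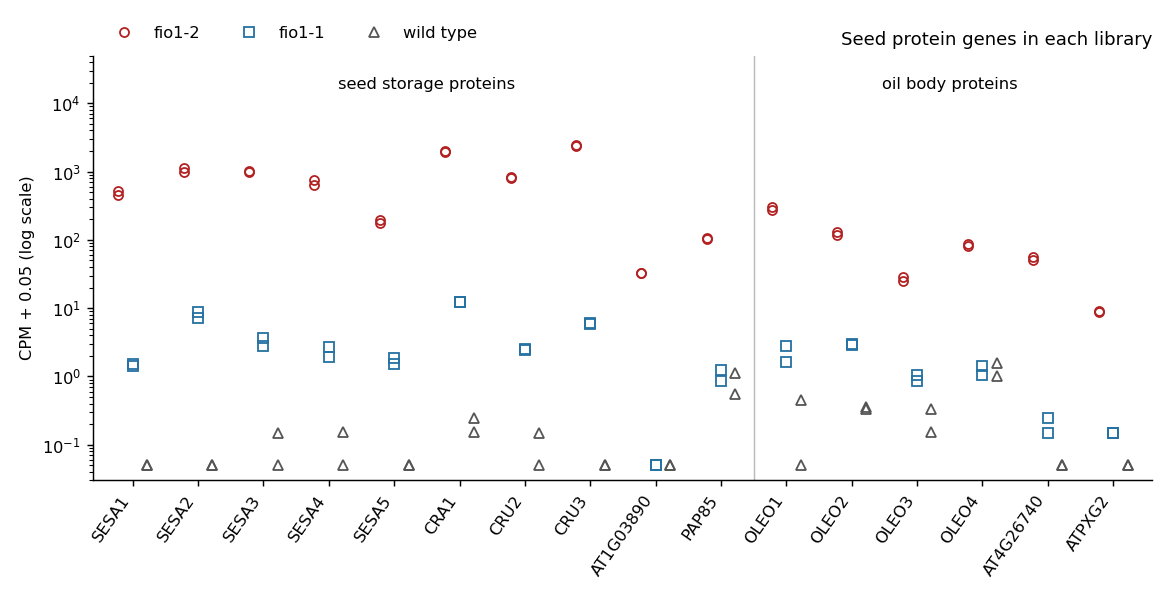
CPM plus 0.05 on a log axis for the storage protein genes (left of the line) and the oil body genes (right of it) in each of the 6 libraries. Circles are *fio1-2*, squares *fio1-1* and triangles wild type, and a point at the bottom of the range (0.05) is a library with no count. In every gene shown both *fio1-2* libraries stand above all *fio1-1* and wild-type libraries.

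Oil bodies, the lipid stores of the embryo, are coated by oleosins, caleosins and steroleosins. All 6 tested genes of this list (of 7 listed) were called higher in *fio1-2*, where 2.13% of all genes tested were. Of these, ATPXG2, AT4G26740 and OLEO3 passed the filter on low counts only through *fio1-2*, where they are high. Their place in this count thus depends on the same difference. The summed level of the list was 562 and 605 CPM in *fio1-2*, against 7.84 and 7.05 CPM in *fio1-1* and 2.35 and 1.54 CPM in wild type. OLEO1 (AT4G25140) had 273 and 301 CPM in *fio1-2*, against 2.78 and 1.59 CPM in *fio1-1* (log2 fold change 7.06, SE 0.294, limma-voom adjusted p = 5.93e-31). The editing vector held the promoter and coding sequence of this oleosin, and the part of a transgene in its counts was not tested. The other oleosins are not in that marker. OLEO2 had 118 and 129 CPM in *fio1-2*, against 2.88 and 2.98 CPM in *fio1-1*, and OLEO4 had 85.7 and 82.4 CPM in *fio1-2*, against 0.993 and 1.39 CPM in *fio1-1*. OLEO3 had 25.3 and 28.3 CPM in *fio1-2*, against 0.993 and 0.794 CPM in *fio1-1*. The caleosin-type peroxygenase ATPXG2 had 209 counts in *fio1-2* and 2 in *fio1-1* (ratio 89.1, 95% interval 24.4 to 740). The caleosin AT4G26740, a peroxygenase of the oil body, had 1249 counts in *fio1-2* and 3 in *fio1-1*, which is 355 times as many after scaling (95% interval 121 to 1720). Not every gene named as an oleosin differed so. AT5G56100, annotated as a glycine-rich protein or oleosin, had 20.3 and 19.2 CPM in *fio1-2*, against 21.8 and 21.3 CPM in *fio1-1*.

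Late embryogenesis abundant (LEA) proteins protect the drying seed, and some are also induced by cold or drought in leaves. Of 16 tested genes on this list, 8 were called higher in *fio1-2* and none lower, against 2.13% and 0.545% of all genes tested. Among the called genes named here, EM1, ECP63 and M10 passed the filter on low counts only through *fio1-2*, where they are high. Their place in this count thus depends on the same difference. The median log2 fold change was 1.02. The seed forms were far apart between alleles. ECP63 had 17.58 and 18.37 CPM in *fio1-2*, against 0.397 and 0.695 CPM in *fio1-1* (log2 fold change 4.97, SE 0.474, limma-voom adjusted p = 1.35e-13). EM1, an early methionine-labelled protein of the dry seed, had 156 counts in *fio1-2* and none in *fio1-1* or wild type, and was at least 44.3-fold higher. AT3G15670 had 40.1 and 46 CPM in *fio1-2*, against 3.57 and 3.28 CPM in *fio1-1*, and M10 had 5.83 and 4.29 CPM in *fio1-2*, against 0.496 and 0.497 CPM in *fio1-1*. The dehydrins known from cold-treated seedlings were not called. COR47 had 475 and 461 CPM in *fio1-2*, against 421 and 414 CPM in *fio1-1*, ERD14 had a log2 fold change of 0.07, and LTI30 had 43.1 and 41.8 CPM in *fio1-2*, against 50.3 and 57.4 CPM in *fio1-1*. A wider group of all 56 tested genes whose product name contains LEA was chosen after values had been seen. In it 15 were called higher and none lower, against the same 2.13% and 0.545%, and the median was 0.10. Some of the 15, M10 and AT1G72100 among them, likewise passed the filter only through *fio1-2*.

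Regulators that switch on maturation were present at low counts and higher in *fio1-2* in part. Of 14 listed, 10 were tested and 4 called higher, where 2.13% of all genes tested were. FUS3, DPBF2 and DOG1 passed the filter on low counts only through *fio1-2*, where they are high. Their place in this count thus depends on the same difference. ABI3, the B3 factor that drives storage protein genes, had 6.88 and 5.13 CPM in *fio1-2*, against 1.39 and 0.497 CPM in *fio1-1* and 0.715 and 1.06 CPM in wild type (log2 fold change 2.73, SE 0.437, limma-voom adjusted p = 9.47e-07). Without *fio1-1* replicate 2 its log2 fold change was 2.03, and without *fio1-1* replicate 1 it was 3.43. FUS3, a second B3 factor, had 36 counts in *fio1-2* and 2 in *fio1-1*, a 15.3-fold ratio (95% interval 3.95 to 132). The call of FUS3 was lost without *fio1-1* replicate 2, with a log2 fold change of 2.66 and a limma-voom adjusted p of 0.0765, and without *fio1-1* replicate 1 its log2 fold change was 4.98. DPBF2, the bZIP67 factor that acts with them in seeds, had 93 counts in *fio1-2* and 2 in *fio1-1*, a ratio of 39.6 (95% interval 10.7 to 332). Its fitted log2 fold change was 5.14, and 3.98 and 6.29 without *fio1-1* replicate 1 and without *fio1-1* replicate 2. DOG1, which sets seed dormancy, had 5.73 and 5.97 CPM in *fio1-2*, against 0.893 and 0.993 CPM in *fio1-1*. ABI5 (log2 fold change 0.97), WRI1 (0.25), BBM (0.45) and AGL15 (0.23) were not called, and LEC1, LEC2, L1L and ABI4 did not pass the filter on low counts.

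Enzymes of the glyoxylate cycle, which turns seed oil into sugar in germination, gave different pictures. ICL, the isocitrate lyase, had 89.1 and 83.6 CPM in *fio1-2*, against 93.7 and 81.3 CPM in *fio1-1* and 2.25 and 1.64 CPM in wild type. The alleles overlapped for ICL, with a log2 fold change of -0.02 and a limma-voom adjusted p of 0.882. MLS, the malate synthase, had 43.1 and 38.7 CPM in *fio1-2*, against 13.7 and 14.1 CPM in *fio1-1* and 3.07 and 2.02 CPM in wild type. It was called higher in *fio1-2* (log2 fold change 1.54, SE 0.12, limma-voom adjusted p = 3.17e-17). MLS was the only called gene of the 7 in this list, where 2.68% of all genes tested were called.

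Promoters of these genes are shown because many hold the RY element, the short word that B3 factors such as ABI3 and FUS3 are known to bind. Each run is the 250 bases before the annotated start of the gene, 5′ to 3′ on the strand of the gene, cut from the TAIR10.1 genome of RefSeq. Capitals mark each match to CATGCA or to its reverse complement TGCATG, and overlapping matches were counted apart. SESA3 (chr4:13611546-13611795, plus strand) has 7 matches, CRU3 (chr4:14087306-14087555, plus strand) has 1 and OLEO3 (chr5:20819818-20820067, plus strand) has 2.
SESA3: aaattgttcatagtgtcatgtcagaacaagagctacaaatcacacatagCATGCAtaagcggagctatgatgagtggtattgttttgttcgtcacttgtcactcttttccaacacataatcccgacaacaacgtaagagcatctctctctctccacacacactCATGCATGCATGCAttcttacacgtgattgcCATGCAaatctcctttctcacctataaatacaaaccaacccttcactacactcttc
CRU3: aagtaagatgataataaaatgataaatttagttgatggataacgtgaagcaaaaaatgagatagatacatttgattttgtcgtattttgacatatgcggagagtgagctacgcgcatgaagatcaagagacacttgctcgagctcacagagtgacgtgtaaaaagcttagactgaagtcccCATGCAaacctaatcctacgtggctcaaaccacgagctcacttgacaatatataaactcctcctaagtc
OLEO3: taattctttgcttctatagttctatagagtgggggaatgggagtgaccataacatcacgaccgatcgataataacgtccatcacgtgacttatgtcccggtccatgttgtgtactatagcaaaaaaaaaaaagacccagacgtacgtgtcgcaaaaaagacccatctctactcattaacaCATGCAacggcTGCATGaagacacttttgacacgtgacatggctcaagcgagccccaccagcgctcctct

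A match stood in the promoters of 9 of the 10 storage protein genes (90.0%) and of all 7 oil body genes, against 1566 of 19999 protein-coding genes tested (7.83%). At least 2 matches were found in 7 of the storage genes and 4 of the oil body genes, against 1.54% of the genes tested. CRU2 had none in this window. Of the 17 listed LEA genes, 4 (23.5%) had a match. These are matches of letters, and they do not show that a factor was bound.

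Storage and oil body genes made up 7 of the 12 named for the largest rise, and the other 5 were on no seed list. AT2G05580, a glycine-rich protein gene, had 83.6 and 84.8 CPM in *fio1-2*, and its 1983 counts there against 3 in *fio1-1* gave a ratio of 563 (95% interval 193 to 2730). AT1G47540, a knottin-like defence peptide gene, had 124 and 156 CPM in *fio1-2*, against 0.794 and 0.199 CPM in *fio1-1*. Its log2 fold change of 8.26 was 9.14 without *fio1-1* replicate 1 and 7.37 without *fio1-1* replicate 2. AT1G04660, another glycine-rich protein gene, had 473 counts in *fio1-2* and 1 in *fio1-1* (ratio 403, 95% interval 72 to 16000), and the thionin gene AT2G15010 had 846 and 3 (ratio 240, 95% interval 82 to 1170). BETA-TIP, a tonoplast water channel known from seeds, had 52.3 and 57.5 CPM in *fio1-2*, against 0.993 and 1.89 CPM in *fio1-1*. The noncoding gene AT1G05333, which overlaps BETA-TIP by 564 bases on the other strand, had 722 counts in *fio1-2* and 1 in *fio1-1* (ratio 615, 95% interval 110 to 24300), and the share of its counts that came from BETA-TIP was not tested. KCS18, the elongase that makes the very long fatty acids of seed oil, had 163 counts in *fio1-2* and none in *fio1-1*, and was at least 46.3-fold higher. BETA-TIP and KCS18 are not among the genes the naming rule gives, and they were picked with their values known.

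Copper status was a field in which the alleles moved to opposite sides of wild type. When copper is short, Arabidopsis replaces its copper/zinc superoxide dismutases (CSD1 and CSD2) with the iron enzyme FSD1, and the factor SPL7 raises uptake genes and the microRNAs miR398 and miR408, which act against copper protein transcripts. Of 15 listed copper genes, 5 were called higher and 3 lower in *fio1-2*, against 2.13% and 0.545% of all genes tested. The 3 lower genes were the copper/zinc dismutases and their chaperone, and the 5 higher ones were FSD1 and uptake genes.

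CSD2 (AT2G28190, chromosome 2, 12014412 to 12016569), the dismutase of the chloroplast, had 55.5 and 58 CPM in *fio1-2*, against 373 and 374 CPM in *fio1-1* and 155 and 149 CPM in wild type. The log2 fold change between alleles was -2.71 (SE 0.0573, limma-voom adjusted p = 1.76e-48). CSD1 (AT1G08830), the cytosolic dismutase, had 53.7 and 49.1 CPM in *fio1-2*, against 187 and 208 CPM in *fio1-1* and 98.1 and 97.9 CPM in wild type. CCS (AT1G12520), the chaperone that loads copper into both, had 29.1 and 28.2 CPM in *fio1-2*, against 111 and 112 CPM in *fio1-1* and 60 and 60.2 CPM in wild type. Wild type thus lay between the alleles for all 3 genes, with no overlap. CSD1 shares 211 bases with emb2411 on the other strand, which was itself called lower (log2 fold change -1.65), and the counts of these 2 genes cannot be told apart there. The copper proteins PETE1 and DRT112, the plastocyanins of photosynthesis, had smaller differences of -0.22 and -0.38 on the log2 scale.

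The replacement enzyme and the uptake genes had the opposite sign. FSD1 (AT4G25100) had 778 and 755 CPM in *fio1-2*, against 209 and 195 CPM in *fio1-1* and 419 and 412 CPM in wild type (log2 fold change 1.92, SE 0.0401, limma-voom adjusted p = 1.06e-48). FRO5, a root reductase that works on copper, had 17.39 and 16.46 CPM in *fio1-2*, against 3.28 and 2.98 CPM in *fio1-1* and 16.7 and 16.3 CPM in wild type. YSL2, a metal-nicotianamine transporter, had 46.2 and 39 CPM in *fio1-2*, against 11.1 and 11.6 CPM in *fio1-1* and 17.1 and 15.1 CPM in wild type. FSD1 lay on both sides of wild type, FRO5 differed from wild type in *fio1-1* and YSL2 mainly in *fio1-2*. ZIP2 (log2 fold change 1.47) and FRO4 (1.34) were called higher as well. COPT2, a high-affinity copper importer, differed by 0.89 on the log2 scale, under the 2-fold minimum. SPL7 itself had 34.5 and 34.9 CPM in *fio1-2*, against 33.3 and 35.7 CPM in *fio1-1* and 34.5 and 33.5 CPM in wild type, with a log2 fold change of 0.01 and a 95% interval of -0.17 to 0.19.

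The microRNA precursors of the copper response were counted as genes too. Of 7 annotated precursors of miR397, miR398, miR408 and miR857, 3 passed the filter on low counts. All 3 were called higher in *fio1-2*, where 2.13% of all genes tested were. This group was chosen after values had been seen. Between the alleles, MIR398c could pass that filter only through *fio1-2*, where it is high, so its place in this count depends on the same difference. Their mature microRNAs are shown with the seed, bases 2 to 8, in capitals, and the sequences are those of RefSeq for TAIR10.1. miR398c-3p has the same letters as miR398b-3p, and miR398a-3p shares the seed GUGUUCU with both.
miR398b-3p: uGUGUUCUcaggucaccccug
miR408-3p: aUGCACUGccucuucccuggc

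MIR398b (chromosome 5, 4691022 to 4691137) had 9.36 and 8.57 CPM in *fio1-2*, against 3.18 and 2.78 CPM in *fio1-1* and 5.52 and 2.98 CPM in wild type (log2 fold change 1.57, SE 0.264, limma-voom adjusted p = 3.06e-06). MIR408 had 9.55 and 9.42 CPM in *fio1-2*, against 2.58 and 3.87 CPM in *fio1-1* and 6.03 and 3.75 CPM in wild type (log2 fold change 1.57, limma-voom adjusted p = 1.5e-06). MIR398c had 44 counts in *fio1-2* and 3 in *fio1-1*, a 12.5-fold ratio (95% interval 4.01 to 62.9). For MIR398b and MIR398c the precursor stood higher in the allele in which CSD1, CSD2 and CCS stood lower. Both MIR398b and MIR408 lie within a gene on the other strand. AT2G47020, which overlaps MIR408 by 218 bases, was itself called higher (log2 fold change 1.02, limma-voom adjusted p = 4.7e-08). AT5G14550, which covers MIR398b, had 48.8 and 52.7 CPM in *fio1-2*, against 27.2 and 27.6 CPM in *fio1-1*, so precursor counts are uncertain. These are counts of long RNA, and the levels of the mature microRNAs were not measured.

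Target stretches are shown to place miR398 on these transcripts, with capitals for bases that pair with miR398b-3p by Watson-Crick rules when the strands are laid side by side without gaps.
CSD1 site: aAGGGGUuuCCUGAGAuCACA
CCS site: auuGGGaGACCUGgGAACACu

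The CSD1 stretch lies in the 5′ UTR across an intron, with ends at 2827177 and 2827685 on chromosome 1 (TAIR10.1), and the CCS stretch in the coding sequence at 4267521 to 4267541 on chromosome 1. With a penalty of 1 for a mismatch and 0.5 for a G:U pair, the CSD1 stretch scored 4, a value reached or bettered by the best stretch of 9 of 27473 annotated genes. The CCS stretch scored 5.5, which 392 genes reached. The best ungapped stretch of CSD2 scored 6.5, as did 3161 genes or better, so that this measure does not single out CSD2. The word GTAC, the core that SPL7 binds, stood in the 250-base promoters of 6 of the 15 copper genes (40.0%), against 34.8% of all protein-coding genes tested. It stood in 3 of the 5 called higher (60.0%) and 2 of the 3 called lower (66.7%), and at least 2 matches were found in 3 of the 15, against 7.83% of the genes tested.

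**Figure D3:**
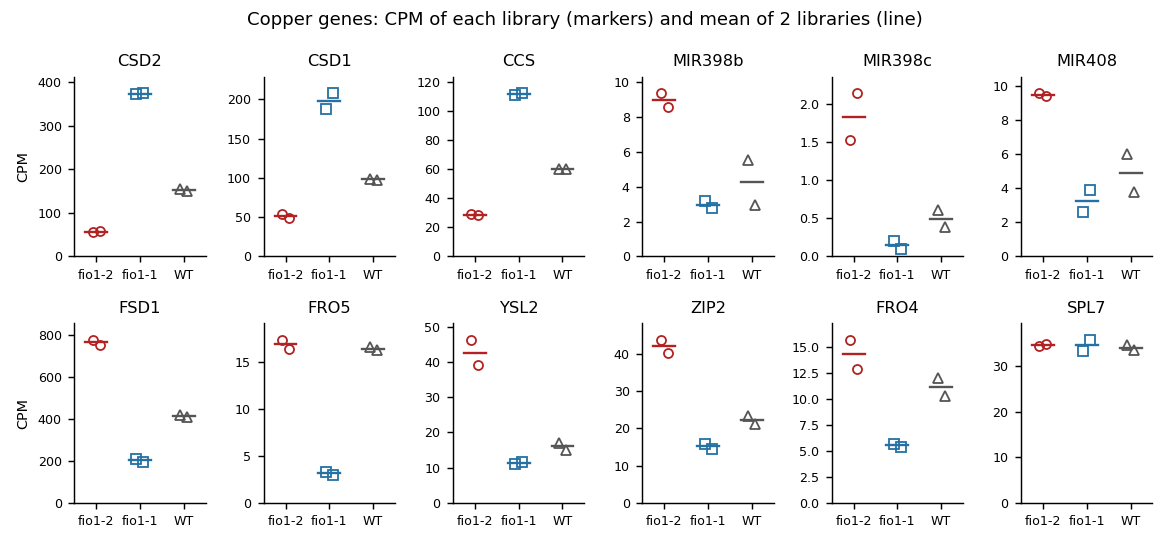
CPM of 12 copper genes and microRNA precursors (vertical axes, each from 0) in *fio1-2*, *fio1-1* and wild type (WT). Markers are single libraries and lines the mean of 2. CSD2, CSD1 and CCS stand lowest in *fio1-2* and highest in *fio1-1*, FSD1 the other way round, the precursors are higher in *fio1-2* while *fio1-1* and wild type lie close or overlap, and the SPL7 libraries overlap.

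Iron uptake genes were lower in *fio1-2* than in *fio1-1*. Under iron shortage, factors of the bHLH family with the master regulator FIT switch on a reductase (FRO2), a transporter (IRT1) and the synthesis of coumarins that free iron from soil. Of 27 tested genes of iron uptake and storage, 11 were called lower and 1 higher in *fio1-2*, against 0.545% and 2.13% of all genes tested, and the median was -0.50. IRT1 (AT4G19690) had 64.2 and 62 CPM in *fio1-2*, against 156 and 164 CPM in *fio1-1* and 81.4 and 84.3 CPM in wild type (log2 fold change -1.35, SE 0.0606, limma-voom adjusted p = 4.32e-29). FRO2 had 30.4 and 33.1 CPM in *fio1-2*, against 82.5 and 87.6 CPM in *fio1-1* and 40 and 41.7 CPM in wild type. For both, wild type lay between the alleles and nearer to *fio1-2*.

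The coumarin genes gave the widest gap. AT3G12900, which encodes the scopoletin 8-hydroxylase S8H, had 1.05 and 1.91 CPM in *fio1-2*, against 14.4 and 15.6 CPM in *fio1-1* and 2.25 and 4.62 CPM in wild type (log2 fold change -3.32, SE 0.33, limma-voom adjusted p = 6.3e-13). CYP82C4, which acts after it, had 18.4 and 21 CPM in *fio1-2*, against 66.2 and 76.8 CPM in *fio1-1* and 20.2 and 18.3 CPM in wild type. MYB72, a root factor upstream of coumarin release, had 0.478 and 0.459 CPM in *fio1-2*, against 2.58 and 1.89 CPM in *fio1-1*, and its call was lost without *fio1-2* replicate 2 (log2 fold change -2.10, limma-voom adjusted p = 0.0548). MYB72 overlaps a gene on the other strand. AT3G13610, which makes the precursor scopoletin, was not called (log2 fold change 0.11).

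Among the regulators, 3 of the 4 bHLH factors of group Ib were called lower in *fio1-2*. BHLH100 had 9.84 and 10.3 CPM in *fio1-2*, against 29.9 and 28.4 CPM in *fio1-1* and 28.6 and 29.1 CPM in wild type. bHLH38 and bHLH39 had log2 fold changes of -1.502 and -1.35, and in both the *fio1-1* libraries were close to wild type. The fourth member, BHLH101, was not called, with 15.4 and 15.4 CPM in *fio1-2*, against 21.3 and 17.9 CPM in *fio1-1* and 27.1 and 27.4 CPM in wild type. The short IRON MAN peptides, which signal iron shortage, behaved alike. AT2G30766 had 32 and 36.1 CPM in *fio1-2*, against 86.8 and 84.1 CPM in *fio1-1* and 85.3 and 89.4 CPM in wild type, and AT1G47400 and AT1G47395 had log2 fold changes of -1.28 and -1.36. AT2G30766 shares 639 bases with AT2G30760 on the other strand, itself called lower (log2 fold change -1.27), so its counts are uncertain. FIT (symbol FRU in the annotation) had 6.5 and 8.27 CPM in *fio1-2*, against 10.52 and 10.13 CPM in *fio1-1*, and missed the threshold (log2 fold change -0.47, limma-voom adjusted p = 0.0575). The 1 called higher was FER2, the ferritin known from seeds, with 7.26 and 6.2 CPM in *fio1-2*, against 1.69 and 1.89 CPM in *fio1-1* and 1.23 and 1.06 CPM in wild type. The leaf ferritins FER1, FER3 and FER4 were not called, with log2 fold changes of 0.35, -0.17 and 0.31. HA2, the proton pump that acidifies soil, was higher in *fio1-2* by 0.34 on the log2 scale, unlike IRT1 and FRO2.

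Sulfur deficiency genes were higher in *fio1-2* than in *fio1-1*. These genes rise when sulfate is short and cover sulfate reduction, the LSU proteins and glutathione turnover. Of 15 tested, 8 were called higher and none lower, against 2.13% and 0.545% of all genes tested. All 15 had a positive log2 fold change, where 10547 of the 21268 genes tested did. The median was 1.05, and without *fio1-1* replicate 1 the number called was 5. LSU3 (AT3G49570) had 4.01 and 4.98 CPM in *fio1-2*, against 0.596 and 0.596 CPM in *fio1-1* and 1.94 and 2.31 CPM in wild type (log2 fold change 2.82, SE 0.479, limma-voom adjusted p = 3.53e-06). ATSDI1, which represses glucosinolate synthesis under sulfur shortage, had 9.46 and 10.4 CPM in *fio1-2*, against 2.08 and 1.39 CPM in *fio1-1* and 2.25 and 2.12 CPM in wild type. APR1, a reductase of sulfate assimilation, had 83.8 and 82.9 CPM in *fio1-2*, against 37.7 and 40.9 CPM in *fio1-1* and 101 and 108 CPM in wild type. LSU3 had wild type between the alleles, ATSDI1 had it with *fio1-1* and APR1 had it above both. SHM7 (log2 fold change 1.23), LSU1 (1.91), LSU2 (1.08) and AT1G04770 (1.05) were called as well. AT5G26220, a glutathione-degrading enzyme, had a log2 fold change of 1.34, and its call was lost without *fio1-2* replicate 2 (1.099), without *fio1-1* replicate 1 (1.345) and without *fio1-1* replicate 2 (1.343).

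Phosphate starvation genes leaned the same way. Of 14 tested, 7 were called higher in *fio1-2*, where 2.13% of all genes were, none lower, and all 14 had positive log2 fold changes, with a median of 0.83. SPX1, a phosphate sensor, had 26.5 and 22 CPM in *fio1-2*, against 7.84 and 9.63 CPM in *fio1-1* and 25.1 and 30.8 CPM in wild type (log2 fold change 1.46, SE 0.159, limma-voom adjusted p = 1.62e-11). MGDC (MGD3), which makes galactolipids in place of phospholipids, had 2.67 and 4.06 CPM in *fio1-2*, against 0.298 and 0.695 CPM in *fio1-1* and 5.31 and 4.91 CPM in wild type. PHT1;4, a phosphate importer, had 28.9 and 30.2 CPM in *fio1-2*, against 12.9 and 15.5 CPM in *fio1-1* and 41.5 and 45 CPM in wild type. In these genes *fio1-1* was the low group and wild type was near or above *fio1-2*. PHO1;H1 (log2 fold change 1.26), PAP17 (1.09) and SRG3 (1.00) were also called. AT1G73010 had a log2 fold change of 1.33 with a limma-voom adjusted p of 0.0452. Its call was lost whichever library was left out, with log2 fold changes from 0.74 to 1.92. PHT1;1, the main importer, had 58.3 and 57.5 CPM in *fio1-2*, against 53.7 and 60.1 CPM in *fio1-1*.

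Some clock genes were higher in *fio1-2*. The plant clock is a loop of morning factors (CCA1, LHY), pseudo-response regulators (PRR) and evening proteins such as GI, and the hour of sampling sets their levels. Of 29 tested clock genes and outputs, 4 were called higher in *fio1-2* (2.13% of all genes tested were) and none lower, and by the adjusted p alone 13 were higher (9.31% of all genes were) and none lower. FKF1, a light-sensing protein that removes repressors of flowering, had 48.9 and 43.7 CPM in *fio1-2*, against 17.37 and 17.78 CPM in *fio1-1* and 46.6 and 46.1 CPM in wild type (log2 fold change 1.39, SE 0.108, limma-voom adjusted p = 3.34e-17). PRR5 had 56.3 and 53.3 CPM in *fio1-2*, against 17.5 and 22.7 CPM in *fio1-1* and 40.6 and 41.5 CPM in wild type. GI had 81.9 and 81.5 CPM in *fio1-2*, against 38.4 and 41.4 CPM in *fio1-1* and 41 and 34 CPM in wild type, and its log2 fold change of 1.03 was 0.98 without *fio1-1* replicate 1, just under the minimum. AT5G64170, the coactivator LNK1, had a log2 fold change of 1.06, which was 0.88 without *fio1-1* replicate 1. For FKF1 wild type sat with *fio1-2*, for GI and AT5G64170 with *fio1-1*. The morning genes CCA1 (log2 fold change -0.03) and LHY (0.09) had few counts and did not pass. The hour of harvest is not given per library, and its part in these values was not tested.

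**Figure D4:**
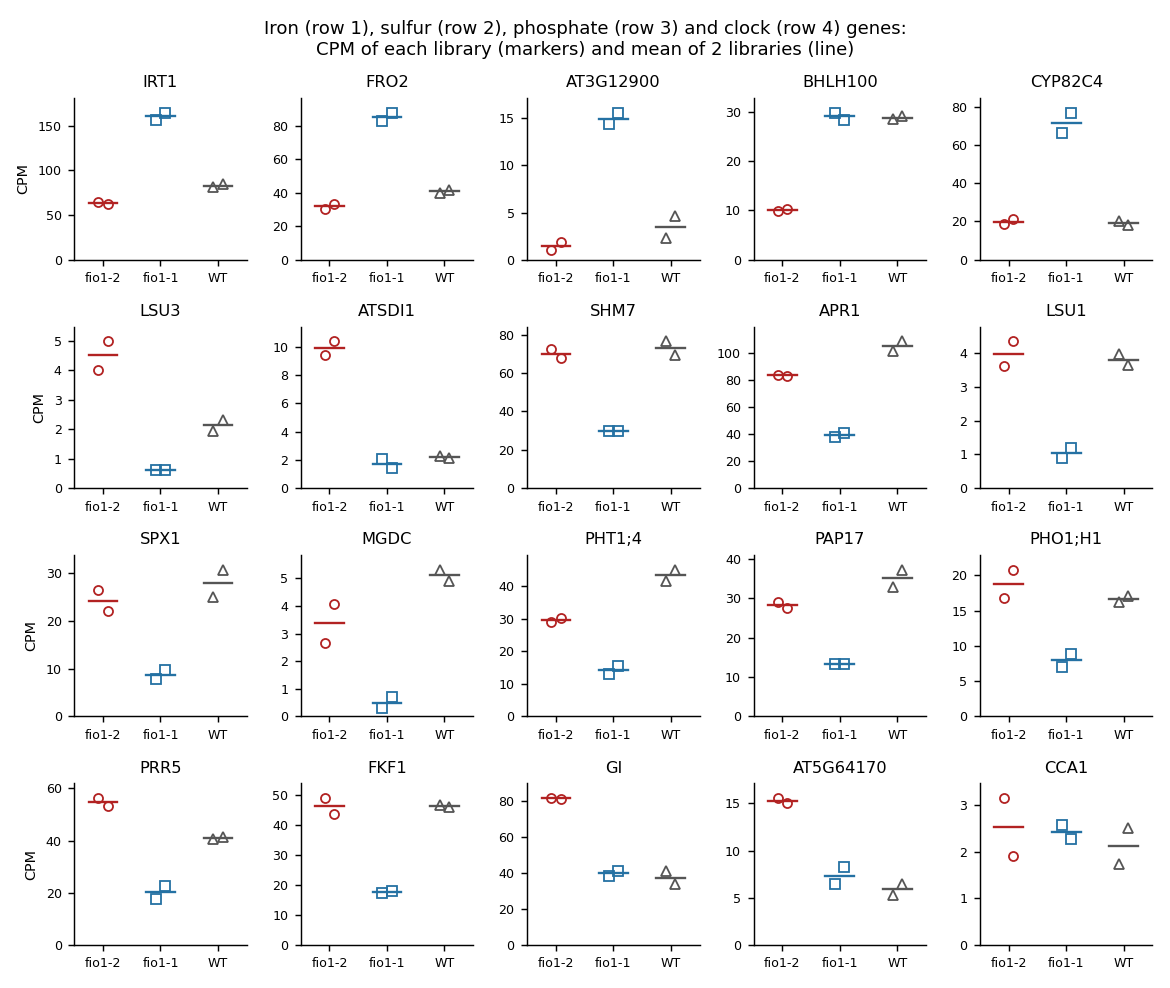
CPM of 20 genes (vertical axes, each from 0) in *fio1-2*, *fio1-1* and wild type (WT), with markers for single libraries and lines for the mean of 2. The iron genes of row 1 are lower in *fio1-2* than in *fio1-1*, the sulfur and phosphate genes of rows 2 and 3 are higher, and in row 4 PRR5, FKF1, GI and AT5G64170 are higher while CCA1 overlaps.

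Of 28 tested flowering regulators, 1 was called lower in *fio1-2* and none higher, which is close to the 2.68% of all genes called. AGL8, the meristem gene FRUITFULL, had 0.86 and 1.22 CPM in *fio1-2*, against 3.08 and 2.09 CPM in *fio1-1* and 0.307 and 0.769 CPM in wild type (log2 fold change -1.25, SE 0.428, limma-voom adjusted p = 0.031). That call was lost without *fio1-2* replicate 1 (-1.03), without *fio1-2* replicate 2 (-1.51) and without *fio1-1* replicate 1 (-0.97). AGL8 passed the filter on low counts only through *fio1-1*, where it is high. The florigen FT had 2.2 and 1.53 CPM in *fio1-2*, against 1.89 and 2.38 CPM in *fio1-1* and 0.409 and 0.577 CPM in wild type. AGL20 (SOC1), an integrator downstream of FT, had 46 and 40.2 CPM in *fio1-2*, against 45 and 43.4 CPM in *fio1-1* and 26.7 and 27.2 CPM in wild type. Both overlapped between alleles, with log2 fold changes of -0.24 and -0.05 and 95% intervals of -0.99 to 0.52 and -0.22 to 0.12. FLC, a repressor of flowering, had 7 counts in *fio1-2* and 3 in *fio1-1*, a 1.99-fold ratio (95% interval 0.454 to 11.9), so a difference was not detectable at this depth. The repressors RAV2 (TEM2) and TEM1 were higher in *fio1-2* by 0.84 and 0.58 on the log2 scale, and both alleles lay below wild type. RAV2 had 93.3 and 92.4 CPM in *fio1-2*, against 55.3 and 48.9 CPM in *fio1-1* and 163 and 173 CPM in wild type. SEP3, a MADS factor of floral organs, had 16.6 and 17.3 CPM in *fio1-2*, against 8.24 and 7.35 CPM in *fio1-1* and 7.05 and 7.41 CPM in wild type. It was 1 of 2 floral organ markers tested of 8 listed, and the other, SHP1, was not called.

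Of 16 tested genes of PIF factors and shade response, 2 were called higher and none lower in *fio1-2*, against 2.13% and 0.545% of all genes. By the adjusted p alone 7 were higher and 1 lower, against 9.31% and 8.76% of all genes. PIF4, a factor that drives elongation growth, had 88.3 and 88.6 CPM in *fio1-2*, against 50.2 and 48.1 CPM in *fio1-1* and 19.5 and 20.1 CPM in wild type. The log2 fold change of 0.85 (SE 0.0709, limma-voom adjusted p = 6.46e-16) was under the 2-fold minimum. Both called genes had few counts, and YUC9 passed the filter on low counts only through *fio1-2*, where it is high. YUC9, an auxin synthesis gene, had a log2 fold change of 1.63, and its call was lost whichever library was left out (1.305 to 1.959). IAA29 had 1.11, and its call was lost without *fio1-2* replicate 2 (0.95), without *fio1-1* replicate 1 (0.80) and without *fio1-1* replicate 2 (1.41).

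Of 14 tested genes of the salicylic acid response, 3 were called higher in *fio1-2* and none lower, where 2.13% of all genes were called higher. By the adjusted p alone 5 were higher and 1 lower, against 9.31% and 8.76% of all genes. PR1, a classical salicylic acid marker, had 44.4 and 52.1 CPM in *fio1-2*, against 15.2 and 14.3 CPM in *fio1-1* and 1.64 and 1.92 CPM in wild type (log2 fold change 1.71, SE 0.117, limma-voom adjusted p = 7.48e-20). BGL2 (PR2), a glucanase, had 18.3 and 25.6 CPM in *fio1-2*, against 6.55 and 5.36 CPM in *fio1-1* and 0.818 and 1.25 CPM in wild type. For PR1 and BGL2 the levels ran in the order *fio1-2*, *fio1-1*, wild type, with no overlap. PR5 was called with a log2 fold change of 1.19, which was 0.95 without *fio1-1* replicate 2. The regulators NPR1 (log2 fold change -0.02), EDS1 (0.13) and WRKY70 (0.03) were not called.

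Jasmonate genes leaned higher in *fio1-2* by small amounts. By the adjusted p alone 12 of 20 were higher and none lower, against 9.31% and 8.76% of all genes, with a median of 0.45, and 2 were called higher, against 2.13% of all genes. PDF1.2, a defensin, had 3.92 and 4.98 CPM in *fio1-2*, against 0.496 and 0.397 CPM in *fio1-1* and 0.409 and 1.54 CPM in wild type (log2 fold change 3.19, SE 0.544, limma-voom adjusted p = 3.79e-06). PDF1.2 passed the filter on low counts only through *fio1-2*, where it is high, so its call depends in part on the same difference. VSP1, a leaf storage protein, had a log2 fold change of 1.71. LOX2, a chloroplast lipoxygenase at the head of synthesis, had 252 and 247 CPM in *fio1-2*, against 149 and 143 CPM in *fio1-1* and 171 and 188 CPM in wild type. Its log2 fold change of 0.77 was under the minimum.

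Glucosinolate genes, which make the sulfur-rich defence compounds of the cabbage family, were all shifted one way. All 20 tested genes had positive log2 fold changes, 15 of them past the adjusted p (9.31% of all genes were higher by it), with a median of 0.62. CYP79F1, the enzyme of the first committed step for aliphatic forms, was the 1 gene called, with 93 and 94.2 CPM in *fio1-2*, against 37.7 and 43.3 CPM in *fio1-1* and 53.4 and 60.3 CPM in wild type (log2 fold change 1.21, SE 0.0775, limma-voom adjusted p = 2.99e-21). BCAT4 was next, with 97.5 and 105 CPM in *fio1-2*, against 55.1 and 47.8 CPM in *fio1-1* and a log2 fold change of 0.99. The count depended on single libraries, since 3 were called without *fio1-2* replicate 1, 2 without *fio1-2* replicate 2 and 3 without *fio1-1* replicate 1. In flavonoid synthesis, DFR was called lower, with 3.34 and 2.45 CPM in *fio1-2*, against 7.25 and 6.95 CPM in *fio1-1* and 1.84 and 2.79 CPM in wild type. It was the 1 gene called of 11 tested, where 2.68% of all genes were called.

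Markers of plant parts moved with the contrast. Of 10 root markers 2 were called higher in *fio1-2* and 6 passed the adjusted p, all higher. All 8 leaf markers passed it as lower in *fio1-2*, none by 2-fold. Of all genes tested 2.13% were called higher, and 9.31% and 8.76% passed the adjusted p as higher and lower. The root markers summed to 2341 and 2283 CPM in *fio1-2*, against 1746 and 1787 CPM in *fio1-1* and 1692 and 1663 CPM in wild type. PYK10, a root glucosidase, made up most of that, with 2218 and 2164 CPM in *fio1-2*, against 1672 and 1712 CPM in *fio1-1*. EXPA18, an expansin of root hairs, had 11 and 10 CPM in *fio1-2*, against 3.87 and 2.78 CPM in *fio1-1* and 6.85 and 4.62 CPM in wild type. The number of root markers called was 1 without *fio1-1* replicate 2. The leaf markers summed to 22710 and 22740 CPM in *fio1-2*, against 30030 and 28600 CPM in *fio1-1* and 27170 and 26890 CPM in wild type. RBCS1A, a Rubisco small subunit, had 11796 and 11824 CPM in *fio1-2*, against 16014 and 15198 CPM in *fio1-1*. No marker on either list was at 0 in a library. These shifts stand beside the metal, sulfur, phosphate and glucosinolate genes, many of which are read in root or leaf, and their part in those results was not tested.

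Several root hair genes were higher in *fio1-2*. Of 8 tested genes named root hair specific, a group chosen after values had been seen, 5 were called higher in *fio1-2*, where 2.13% of all genes were, and all 8 log2 fold changes were positive, with a median of 1.13. RHS19, a peroxidase, had 23 and 25.8 CPM in *fio1-2*, against 9.13 and 9.73 CPM in *fio1-1* and 13.6 and 13.2 CPM in wild type (log2 fold change 1.37, SE 0.146, limma-voom adjusted p = 6.89e-12). RHS18 had 5.64 and 5.59 CPM in *fio1-2*, against 1.69 and 1.29 CPM in *fio1-1*. Extensins, structural proteins of the wall that root hairs make in quantity, were also picked as a group with values known, and gave 14 of 45 called higher and none lower, against the same 2.13%. EXT13 had 20 and 21.6 CPM in *fio1-2*, against 5.26 and 6.16 CPM in *fio1-1* and 8.69 and 9.62 CPM in wild type. AT2G27380, an extensin gene, stood out in size, with 77 and 70.9 CPM in *fio1-2*, against 5.36 and 5.36 CPM in *fio1-1* and no counts in wild type.

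**Figure D5:**
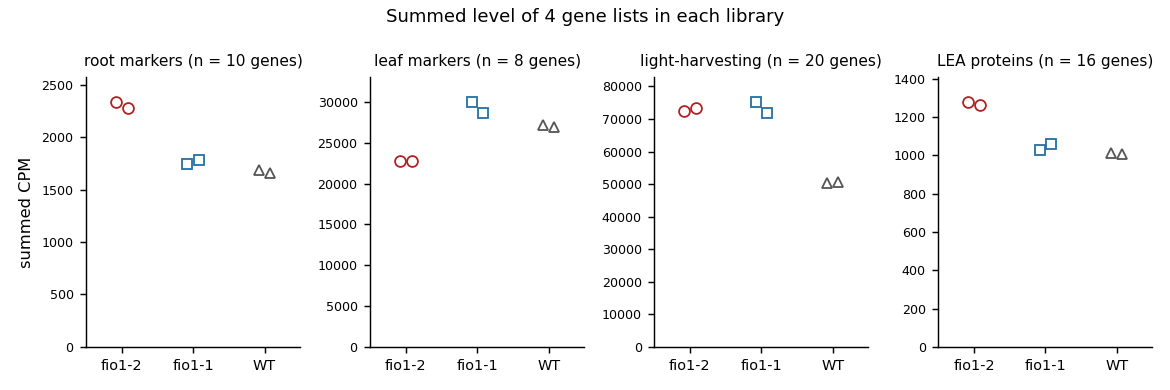
Summed CPM (vertical axes, each from 0) of the tested genes of 4 lists in each library of *fio1-2*, *fio1-1* and wild type (WT). Root markers stand at 2341 and 2283 in *fio1-2*, above the 1746 and 1787 of *fio1-1*, leaf markers stand below, light-harvesting genes overlap between the alleles and stand above wild type, and LEA genes stand higher in *fio1-2*.

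The light-harvesting proteins are antennae of the photosystems and did not follow the leaf markers. Of 20 tested none was called, where 2.68% of all genes were. By the adjusted p alone 7 were higher and 6 lower, against 9.31% and 8.76% of all genes, and the median was -0.005. Their sum was 72490 and 73420 CPM in *fio1-2*, against 75320 and 71800 CPM in *fio1-1* and 50280 and 50590 CPM in wild type, so that the alleles overlapped and both stood above wild type. LHCB2.2 had the largest difference, 0.54 on the log2 scale. Close copies among these genes make single values uncertain.

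A smaller set of genes was high in *fio1-1*. AT2G01422, a noncoding gene on chromosome 2 (183940 to 184734), had 0.764 and 0.383 CPM in *fio1-2*, against 60.3 and 59.4 CPM in *fio1-1* and 0.102 and 0 CPM in wild type (log2 fold change -6.72, SE 0.447, limma-voom adjusted p = 2e-20). It was the gene with the largest drop in *fio1-2* relative to *fio1-1*, and next to none of it was seen outside *fio1-1*. XTH33, a wall enzyme that cuts and joins xyloglucan, had 8.41 and 9.11 CPM in *fio1-2*, against 59.4 and 61.4 CPM in *fio1-1* and 2.45 and 2.02 CPM in wild type. SLAH3, a nitrate and chloride channel, had 36.2 and 37 CPM in *fio1-2*, against 117 and 112 CPM in *fio1-1* and 20.9 and 18.8 CPM in wild type. XTR6, another xyloglucan enzyme, had 13.4 and 16 CPM in *fio1-2*, against 39.3 and 35.9 CPM in *fio1-1* and 3.88 and 3.46 CPM in wild type. These last 3 stood above wild type in both alleles and highest in *fio1-1*. ABR1, an AP2-type repressor of abscisic acid responses, had a log2 fold change of -1.99.

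Called genes with *fio1-1* near wild type were found as well. AT4G34950, a transporter of the major facilitator family, had 94.4 and 88.3 CPM in *fio1-2*, against 211 and 211 CPM in *fio1-1* and 224 and 224 CPM in wild type. AT1G13609, a defensin-like gene, had 45.6 and 42.9 CPM in *fio1-2*, against 112 and 109 CPM in *fio1-1* and 126 and 124 CPM in wild type. In both, *fio1-2* lay far below the other 2 groups.

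The remaining large drops were at few counts. AT1G18020 had a log2 fold change of -2.60 that rested on *fio1-1* replicate 2, with 0.382 and 0.842 CPM in *fio1-2*, against 1.49 and 9.63 CPM in *fio1-1* and 0.715 and 0.866 CPM in wild type. Without *fio1-1* replicate 2 its log2 fold change was -1.28 (limma-voom adjusted p = 0.224), without *fio1-2* replicate 1 it was -2.13 (0.117), without *fio1-2* replicate 2 it was -3.17 (0.1) and without *fio1-1* replicate 1 it was -3.93. AT4G02170 had 0.191 and 0.842 CPM in *fio1-2*, against 1.89 and 2.28 CPM in *fio1-1* and 0 and 0.385 CPM in wild type. For AT1G18020 and AT4G02170 the high group was *fio1-1*, and *fio1-2* overlapped wild type. AT5G38820 and AT1G07367 had wild type between the alleles. The call of AT5G38820 was lost without *fio1-2* replicate 2 (-1.83) and that of AT4G02170 without *fio1-2* replicate 1 (-1.27), and AT4G02170 had -3.15 without *fio1-2* replicate 2. AT1G07367 had -1.97, and -1.29 without *fio1-2* replicate 2.

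Of 16 tested writers, erasers and readers of m6A and S-adenosylmethionine synthetases none was called, where 2.68% of all genes were, so the count says little of these genes. Their log2 fold changes ran from -0.38 to 0.17. MTO3 (MAT4), a synthetase of the methyl donor, had 516 and 531 CPM in *fio1-2*, against 691 and 676 CPM in *fio1-1* and 562 and 572 CPM in wild type, which was the -0.38. MTA, the main writer of m6A, had 23.598 and 18.907 CPM in *fio1-2*, against 22.9 and 20.2 CPM in *fio1-1*.

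Transcripts that the study lists as less methylated, from direct RNA sequencing of other libraries, had medians near that of all genes. The lists used cover *fio1-1* and *fio1-5*, and leave out the T-DNA line that the study compares with them. Of the 13 listed for both alleles 1 was called higher, of the 50 listed only for *fio1-5* none, and of the 60 tested of 61 listed only for *fio1-1* 1 was called higher, where 2.13% of all genes were, so counts this small say little of these lists. Their medians were -0.015, 0.034 and -0.017, against -0.002 over all genes tested. MBP1, a myrosinase-binding protein, had 6.59 and 6.28 CPM in *fio1-2*, against 3.18 and 3.18 CPM in *fio1-1*, at the 2-fold limit. Its log2 fold change of 1.00 fell just under the limit without *fio1-2* replicate 1 (0.97), without *fio1-1* replicate 2 and without either wild-type library (1.00 each). NAP, a senescence factor, had a log2 fold change of 1.45, and its call was lost without *fio1-2* replicate 1 (1.17), without *fio1-1* replicate 1 (1.92) and without *fio1-1* replicate 2 (0.97). EXO, a growth gene listed for both alleles, had 116 and 124 CPM in *fio1-2*, against 213 and 222 CPM in *fio1-1* and 40.9 and 39.3 CPM in wild type, a log2 fold change of -0.86. TCH4, listed for *fio1-5* and not for *fio1-1*, had 177 and 174 CPM in *fio1-2*, against 311 and 312 CPM in *fio1-1* and 86.7 and 94.4 CPM in wild type. The study also gives TCH4 as less methylated in the T-DNA line. Both were lower in *fio1-2* than in *fio1-1* by less than 2-fold and stood above wild type in both alleles.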

How the data were processed

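RNA-seq of 6 libraries was used, 2 each of *fio1-2*, *fio1-1* and wild type. The authors trimmed paired-end reads with Trim Galore 0.6.3, aligned them to TAIR10 with HISAT2 2.1.0 and deposited raw counts per gene from HTSeq 0.9.1. The strand setting is not given in the sources used here. The authors also deposited limma 3.38.3 tables of each mutant against wild type, with fold changes, mean levels, test scores and p-values, which were not used. Counts of 21268 of 32833 listed genes passed the filterByExpr filter of edgeR 4.0.16 and were fitted with limma-voom (limma 3.58.1, R 4.3.3) over all 6 libraries, with a mean per genotype, TMM factors and Benjamini-Hochberg adjustment. A call needed an adjusted p under 0.05 and a log2 fold change of at least 1 in size. A gene at few counts outside 1 genotype could pass the filter only through that genotype. Counts of called members among those tested thus depend in part on the contrast. The fit had 3 residual degrees of freedom, and 62.14 prior degrees of freedom taken from all genes. The totals of 9717111 to 13055457 counts set the precision. A fold against an allele with no counts uses a floor of 3 counts over its libraries, and ratios of low counts carry exact 95% intervals, both of which cover counting error only.

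The genes named were FIO1, the 12 called per direction with the largest change among those with a mean of at least 1 CPM in the mutants and no overlap between alleles, the 6 most abundant called per direction, and in each list every called member where there were up to 6, otherwise the 4 with the largest change, with members needed to describe regulators. Other members are named with their values for contrast and were chosen after these were seen. The alleles, lists and tests were chosen with earlier results of these data known. Sequences came from the RefSeq genome and annotation of TAIR10.1. Replicate numbers did not pair the libraries. The alternatives tried were edgeR's quasi-likelihood test, DESeq2 1.42.0, limma treat, other scaling factors, filters and fold minimums, the mutants alone, a replicate block, robust and weighted fits, and leaving out each library. The code was tested on simulated data.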

Additional observations from a re-analysis of the deposited data

Results flagged for a closer look

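In 3 of the genes named, the alleles lay on opposite sides of wild type and each was called against it. CSD2, the chloroplast copper/zinc superoxide dismutase, differed from wild type by -1.42 in *fio1-2* and by 1.296 in *fio1-1* on the log2 scale, and the contrast between alleles of -2.71 had a limma-voom adjusted p of 1.758e-48. AT3G12900, the scopoletin 8-hydroxylase of iron uptake, stood at -1.14 in *fio1-2* and 2.18 in *fio1-1*, and the contrast was -3.32 (limma-voom adjusted p = 6.304e-13). LSU3, of the sulfur deficiency response, stood at 1.07 in *fio1-2* and -1.75 in *fio1-1*, and the contrast was 2.82 (limma-voom adjusted p = 3.533e-06). Both effects in each pair share the wild-type libraries. With 2 libraries per group no library could be tested for standing apart.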

How the results depend on the processing

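No called gene among those named changed direction under any alternative run, while FIO1, not called at -0.09, had 0.04 without *fio1-2* replicate 1. Against 454 genes called higher and 116 lower, edgeR's quasi-likelihood test gave 468 and 116, and DESeq2 gave 313 and 55, with 1028 higher and 898 lower by its adjusted p alone. Requiring a change beyond 2-fold in the test itself (limma treat) left 147 higher and 19 lower, also as the counts by adjusted p alone. A 1.5-fold minimum gave 839 and 331, and a 4-fold minimum gave 177 and 16, so that the share of calls that were higher was 79.6% in the fit reported, 71.7% and 91.7% under these minimums and 88.6% under limma treat. Leaving out 1 library gave 344 to 470 higher and 83 to 123 lower calls, and by the adjusted p alone 1252 to 1871 higher, the lowest without *fio1-1* replicate 1, and 1254 to 1757 lower. Of 74 named genes, a 4-fold minimum lost the calls of 33, limma treat those of 25, leaving out a library those of 3 to 9, and DESeq2 those of 9, namely AGL8, AT1G18020, AT1G73010, AT4G02170, AT5G26220, IAA29, MBP1, NAP and YUC9. Deviations of same-numbered libraries correlated at -0.0281, -0.00432 and 0.000309 between the pairs of genotypes, so the numbers do not pair them. With the replicate number as a block, 437 genes were called higher and 108 lower (1875 and 1742 by the adjusted p alone), and of the named genes AGL8, AT1G73010 and YUC9 lost their calls. Genes of few counts, such as FLC, FUS3 and MYB72, are limited by depth.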

Other observations

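SAUR genes, a family of small proteins that respond to auxin, fell on both sides. Of 51 tested, a group chosen after values had been seen, 9 were called higher and 2 lower in *fio1-2*. Of all genes tested 2.13% were called higher and 0.545% lower. The median log2 fold change of the SAUR genes was 0.21. Laccases, copper enzymes of the cell wall, were also picked as a group with values known. Of 11 laccase genes tested none was called, and the median was 0.19. Since 2.68% of all genes were called, that count says little of the laccases.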
